A study of Mus musculus with 8 samples.

Results

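Dual-specificity phosphatases and Gadd45 stress genes were examined in monocytes of mouse blood and spleen. The set held 10 listed genes: Dusp1, Dusp2, Dusp3, Dusp5, Dusp6, Dusp10, Dusp16, Gadd45a, Gadd45b and Gadd45g. Members were found by the gene name that the scanner files give each probe, and every probe with such a name was kept. This gave 12 of the 41174 probes on the array and 9 of the 10 genes, because no probe carried the name Dusp5. Of those 9 genes, 7 entered the test of 18266 genes. Dusp1 and Dusp6 did not, since fewer than 3 values stood in the authors' table for one of the tissues.

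The dual-specificity phosphatases described here remove phosphate from both the threonine and the tyrosine that switch on MAP kinases, so they shut off ERK, p38 and JNK. Many are themselves transcribed in response to the kinases they silence, and in monocytes and macrophages they limit inflammatory cytokine output. Gadd45 proteins are small stress sensors, induced by DNA damage, growth arrest or cytokines, which bind kinases upstream of p38 and JNK as well as cell cycle regulators.

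Both groups were Ly-6C-high monocytes of healthy, untreated C57BL/6 mice, an inbred strain; the animals were female, 8 to 12 weeks old and fed chow. No group carried a transgene, deletion or treatment. The sort took cells with much surface CD11b and Ly-6C but little CD90, B220, CD49b, NK1.1 or Ly-6G, and little of a set of macrophage and dendritic cell antigens that included CD11c. The blood group had 4 samples and the spleen group had 4 samples, each of 1000 sorted cells from a group of 4 mice, with an RNA integrity number of at least 8. From 5 ng of RNA, amplified Cy3-labelled cDNA was hybridized to 1-colour Agilent arrays. The series asks how monocytes of the spleen compare with those of the blood. Its design text has both tissues taken from each mouse, but no label ties a sample number to a mouse, so samples were compared unpaired. The p-values therefore reflect only how far these samples scatter. Because each sample is a pool of cells, fewer cells expressing a gene and less RNA per cell cannot be told apart.

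The deposits carry a conflict that touches every member. Scanner files of blood 4 and of the 4 spleen samples ranked probes as their columns in the authors' table did, while those of blood 1, blood 2 and blood 3 had rank correlations of 0.842 to 0.872 with their own columns. Each of the latter ranked probes closer to another sample's column, at 0.865 to 0.898. Which deposit holds the intended blood samples is not known. Values below are log2 values of the authors' table unless the scanner files are named, and member results are also given on the 5 matching arrays alone (from their scanner files for Dusp1 and Dusp6). There blood has 1 sample, which is assumed to vary as the spleen samples do. On the 5 matching arrays, 26555 to 29588 probes passed the scanner software's own test for being well above background, and a table value of 6.8 was taken as the background level. Defining markers of Ly-6C-high monocytes were all above that level somewhere, 8 of 8, with sample means from 12.59 to 13.25 for blood and from 12.63 to 13.19 for spleen. Neutrophil markers differed most between the tissues. The means of these 12 genes ranged over 7.68 to 9.49 for blood and 10.81 to 11.93 for spleen, and 9 of the 10 tested were higher in spleen, with a median difference of 1.73. Red pulp macrophage markers averaged 7.74 to 8.27 per blood sample and 8.78 to 9.40 per spleen sample, with 6 of 7 tested genes higher in spleen. Platelet markers averaged 6.98 to 9.18 per blood sample and 7.50 to 8.20 per spleen sample, with 0 of 5 tested genes higher in spleen. The part of these markers in the results below was not tested.

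Sequences are shown for the 3 members whose difference between tissues had an unadjusted p under 0.05, namely Dusp2, Gadd45b and Gadd45g. Each is the 250 bases before the gene's start, from RefSeq on build GRCm38.p6, read 5′ to 3′ along the gene's strand. The coordinates are chr2:127335909-127336158 for Dusp2, chr10:80929841-80930090 for Gadd45b and chr13:51846425-51846674 for Gadd45g, all on the plus strand. Capitals mark the letters TATAAA or GGGCGG on either strand.
Dusp2: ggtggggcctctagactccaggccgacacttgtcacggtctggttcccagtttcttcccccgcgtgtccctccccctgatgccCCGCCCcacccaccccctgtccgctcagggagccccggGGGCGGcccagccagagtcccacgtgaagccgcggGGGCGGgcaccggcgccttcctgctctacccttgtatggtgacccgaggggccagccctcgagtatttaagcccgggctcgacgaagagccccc
Gadd45b: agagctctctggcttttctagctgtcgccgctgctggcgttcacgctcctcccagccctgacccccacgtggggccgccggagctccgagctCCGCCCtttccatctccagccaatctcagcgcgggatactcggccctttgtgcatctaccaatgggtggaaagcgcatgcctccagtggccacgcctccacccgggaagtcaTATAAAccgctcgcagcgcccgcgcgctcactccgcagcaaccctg
Gadd45g: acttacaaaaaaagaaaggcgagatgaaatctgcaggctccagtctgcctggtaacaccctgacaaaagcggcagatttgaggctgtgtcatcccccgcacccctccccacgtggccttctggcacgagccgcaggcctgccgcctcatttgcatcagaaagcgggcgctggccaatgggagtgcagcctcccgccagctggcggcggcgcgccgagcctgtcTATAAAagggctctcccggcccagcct

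TATAAA was found in the Gadd45b and Gadd45g windows, where it begins 46 and 27 bases before the start, and in no other member. Of 32851 promoter windows of the same length, 12.4% held it. The Dusp2 window held 3 matches to GGGCGG, the letters of a GC box, against a share of 32.7% of all windows with at least 1 match, and 8 of the 10 members held it. Other letters searched on both strands were TGACG and TGACGTCA (the cyclic AMP response element and its core, the shorter inside the longer), TGANTCA (AP-1) and CCGGAAGT (ETS). The NF-kB, CArG box and p53 half-site motifs were searched as well. None of these 7 matched in the 3 windows shown. The full TGACGTCA was found for Dusp1 and for 1.55% of all windows. A match is a description of letters and not evidence that a factor was bound.

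Over the tested members, spleen and blood differed by amounts that did not pass the adjusted threshold for any gene. Dusp2 and Gadd45g were higher in spleen and Gadd45b was lower on its brighter probe, each with an unadjusted p under 0.05. Those are 3 of 7 tested members, 42.9%, where 5.43% of all tested genes (992 of 18266) had an unadjusted p under 0.05. By direction, 2 of 7 were higher against 3.09% of all genes, and 1 of 7 was lower against 2.34%. The members were chosen with earlier results of these data known, so these shares describe the set and do not test it. After Benjamini-Hochberg adjustment of limma's p-values, 0 of 7 members and 0 of all 18266 genes passed 0.05, and the smallest adjusted p of any gene was 0.0536. Under the alternative settings between 0 and 13 of all genes passed, and 0 members did in each of them. The members' median difference was -0.36, with 3 higher and 4 lower, against -0.0081 over all genes, of which 48.8% were higher in spleen. Taken without sign, the median difference was 0.77 for the members and 0.20 for all genes. An unsigned difference also rises with the scatter between samples, which was not compared between members and all genes. The 95% interval lay within 2-fold in either direction for 0 of 7 members and for 55.1% of all genes, so a difference of 2-fold remained possible for each tested member.

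**Figure D1:**
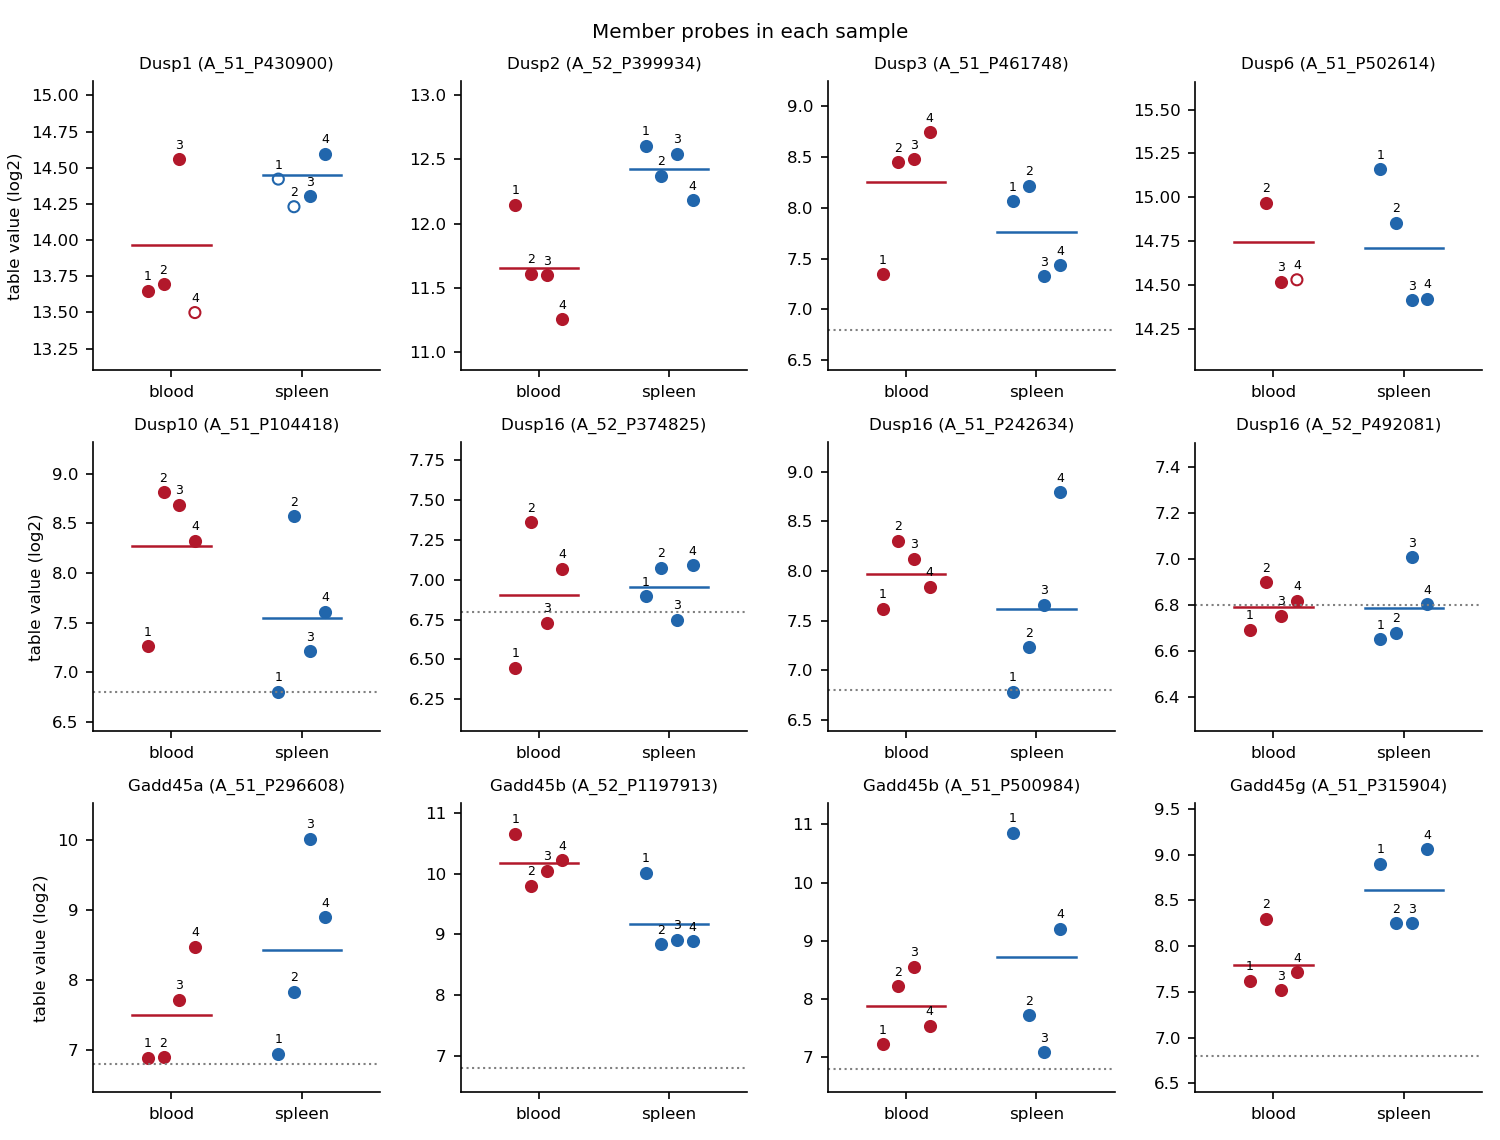
Log2 value in the authors' table (vertical axis, a separate scale in each panel) of each of the 12 member probes in the 4 blood (red) and 4 spleen (blue) samples, numbered. Filled points are deposited values, lines their group means, open points values filled from the scanner file of a matching array, and dotted lines the background level of 6.8 where it falls in the panel. The 4 Dusp2 spleen values lie at 12.18 to 12.61, above the highest blood value of 12.15.

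Dusp2, a nuclear phosphatase of ERK and p38 found mainly in blood cells and induced on activation, was the only tested member whose tissues did not overlap. Its probe A_52_P399934, which the scanner files place at chr2:127079047-127079106 on build mm7, read 12.15, 11.61, 11.60 and 11.26 in blood 1 to 4. In spleen 1 to 4 it read 12.61, 12.37, 12.54 and 12.18. All 4 spleen values were above all 4 blood values, by a narrow gap between spleen 4 and blood 1; 1.88% of all tested genes (344) had spleen wholly above blood, and 3.3% (602) had the tissues apart in either direction. Blood averaged 11.65 ± 0.37 and spleen 12.43 ± 0.19 (SD, n = 4 each). The difference was 0.77 (SE 0.24, 95% interval 0.24 to 1.31), a 1.71-fold higher value in spleen, with limma's Benjamini-Hochberg adjusted p = 0.691. Leaving out 1 sample at a time gave 0.64 to 0.94. On the 5 matching arrays the Dusp2 difference was 1.17 in the table and 1.29 in the scanner files. Between spleen 4 and blood 4, the pair on one slide, it was 0.93. Across all 8 scanner files, scaled to each array's 75th percentile, the sign turned to -0.39, with the 3 conflicting blood files at 5.02, 4.99 and 3.21, blood 4 at 2.17 and spleen at 3.13 to 3.73 above that percentile.

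Dusp1, the nuclear phosphatase MKP-1 that acts on p38 and JNK and is induced by stress and glucocorticoids, had gaps in the table. Its probe A_51_P430900 at chr17:24690398-24690455 (mm7) read 13.65, 13.70 and 14.56 in blood 1 to 3, and 14.30 and 14.60 in spleen 3 and 4. The other 3 cells were empty. Each belongs to a spot with a background-outlier mark in the scanner file, on an array whose scanner file matches its column. Filled from the spot signal of those files, blood 4 came to 13.50, spleen 1 to 14.42 and spleen 2 to 14.23. The Dusp1 difference with these filled values was 0.54 (SE 0.27, 95% interval -0.07 to 1.14), with averages of 13.85 ± 0.48 for blood and 14.39 ± 0.16 for spleen (SD, n = 4 each), with limma's Benjamini-Hochberg adjusted p = 0.94. The groups overlapped through blood 3 alone, which lay above spleen 1, 2 and 3. The Dusp1 difference was 0.84 on the 5 matching scanner files. Over all 8 scanner files it was 1.62 at the 75th percentile and 1.55 after normexp background correction and quantile normalization, the latter with an unadjusted limma p of 0.0381 (Benjamini-Hochberg adjusted 0.53).

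For Dusp6, the cytoplasmic phosphatase MKP-3 that is selective for ERK and is transcribed in response to ERK, the cells of blood 1 and blood 4 were empty. Probe A_51_P502614 at chr10:98828759-98828818 (mm7) read 14.97 in blood 2 and 14.52 in blood 3. In spleen 1 to 4 it read 15.16, 14.86, 14.41 and 14.42. Blood 4 filled to 14.53, and blood 1 could not be filled because its scanner file conflicts with the table. The Dusp6 values of the tissues interleaved. With blood 1 dropped and blood 4 filled, the difference was 0.04 (SE 0.28, 95% interval -0.60 to 0.68), with limma's Benjamini-Hochberg adjusted p = 1. That interval lay within 2-fold in either direction. The 5 matching scanner files gave a Dusp6 difference of 0.25. All 8 scanner files gave 0.85 at the 75th percentile and 0.77 after normexp, with unadjusted limma p of 0.04 and 0.0334 (Benjamini-Hochberg adjusted 0.608 and 0.524).

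Dusp3 is VHR, a small phosphatase of ERK and JNK that lacks the kinase-docking domain of its larger relatives. Its probe A_51_P461748 at chr11:102083248-102083307 (mm7) read 7.35, 8.45, 8.48 and 8.74 in blood 1 to 4, and 8.06, 8.22, 7.32 and 7.43 in spleen 1 to 4. Blood 1 was below the other 3 blood samples, which all lay above every spleen value. Spleen lay wholly below blood for 1.41% of all tested genes with all 8 samples, a share not computed without blood 1. The Dusp3 difference was -0.49 (SE 0.35, 95% interval -1.28 to 0.29), with limma's Benjamini-Hochberg adjusted p = 1. Without blood 1 it was -0.80 with an unadjusted limma p of 0.0229 (Benjamini-Hochberg adjusted 0.854). With any other sample left out it was -0.65 to -0.33, with unadjusted limma p of 0.12 to 0.399. On the 5 matching arrays it was -0.98 in the table and -1.42 in the scanner files.

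Dusp10 is MKP-5, a phosphatase of p38 and JNK that restrains cytokine production in immune cells. Blood 1 to 4 read 7.26, 8.82, 8.69 and 8.33 on probe A_51_P104418 at chr1:183600757-183600816 (mm7). Spleen 1 to 4 read 6.80, 8.57, 7.21 and 7.61. Blood 1 and spleen 1 were the lowest of their tissues and spleen 2 lay among the higher blood values, so the tissues overlapped. The Dusp10 difference was -0.73 (SE 0.45, 95% interval -1.73 to 0.28), with limma's Benjamini-Hochberg adjusted p = 1. Without blood 1 it was -1.06, with an unadjusted limma p of 0.0301 (Benjamini-Hochberg adjusted 0.869). Without spleen 2 it was -1.07, with an unadjusted limma p of 0.0288 (Benjamini-Hochberg adjusted 0.764). Without spleen 1, whose value was at the background level, it was -0.48. On the 5 matching arrays the Dusp10 difference was -0.78 in the table and -1.28 in the scanner files. All 8 scanner files gave -2.05 at the 75th percentile and -1.53 after normexp.

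Dusp16, or MKP-7, is a phosphatase of JNK and p38, and it had 3 probes on chromosome 6. The brightest, A_51_P242634 at chr6:134729960-134730000 (mm7), read 7.62, 8.30, 8.12 and 7.84 in blood 1 to 4, and 6.78, 7.23, 7.66 and 8.79 in spleen 1 to 4. Spleen 4 was the highest of all 8 samples and the other 3 spleen values were at or below the middle of the blood range. The difference on this probe was -0.36 (SE 0.40, 95% interval -1.26 to 0.55), with limma's Benjamini-Hochberg adjusted p = 1. It was -0.75 without spleen 4, with an unadjusted limma p of 0.0325 (Benjamini-Hochberg adjusted 0.874), and -0.08 without spleen 1; between spleen 4 and blood 4 alone it was 0.95. The 5 matching arrays gave a Dusp16 difference of -0.22 in the table and -0.70 in the scanner files. All 8 scanner files gave -3.27 at the 75th percentile and -2.53 after normexp, with unadjusted limma p of 0.00995 and 0.0132 (Benjamini-Hochberg adjusted 0.593 and 0.515). Spleen 1 lay just below the background level on this probe. The other two probes stayed near background. A_52_P374825 at chr6:134751853-134751912 (mm7) ranged over 6.45 to 7.36 across blood and 6.75 to 7.09 across spleen, a difference of 0.05 (SE 0.25). A_52_P492081 at chr6:134732307-134732366 (mm7) read 6.69 to 6.90 and 6.65 to 7.01, a difference of -0.0061 (SE 0.20), and reached the background level on 4 of 8 arrays.

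**Figure D2:**
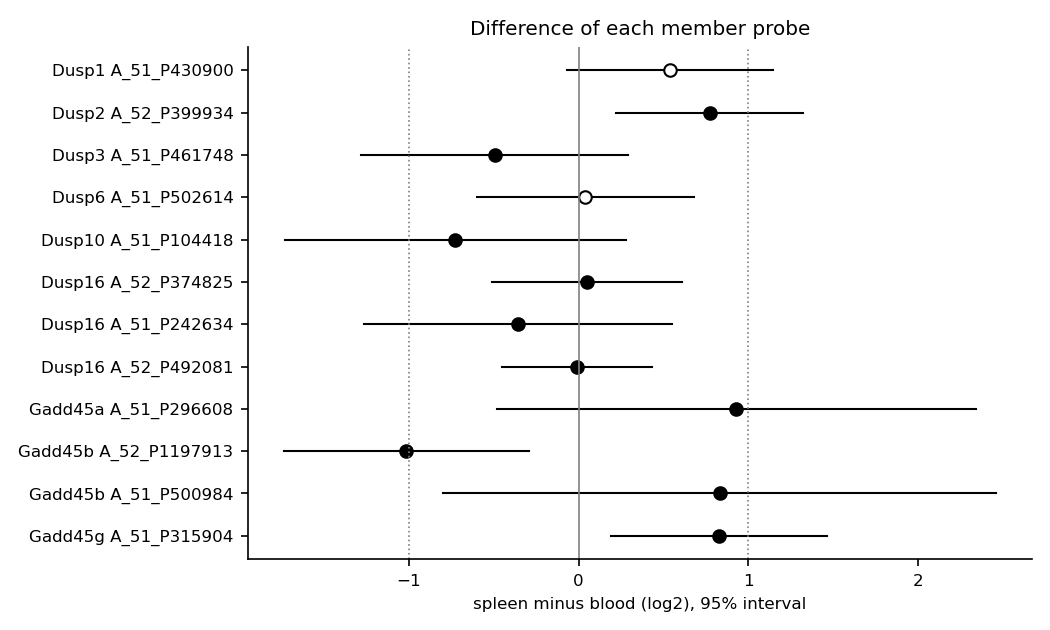
Spleen minus blood difference (log2, horizontal axis) of each member probe with its 95% interval from a limma fit over all probes, which differs slightly from the fit over genes; open points rest on filled values, and dotted lines mark a 2-fold difference. The intervals of Dusp2, Gadd45g and the Gadd45b probe A_52_P1197913 leave out 0, and the Gadd45b probes lie on opposite sides of 0.

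Gadd45b, which is induced by NF-kB and TGF-beta signalling and binds the JNK kinase MKK7, had 2 probes that differed in sign. They lie on the plus strand of chromosome 10, and their starts are 523 bases apart, with the dimmer probe downstream. The last 30 bases of each are shown because the results turn on which probe is read, with the letters of the polyadenylation signal AATAAA in capitals where a probe holds them.
A_52_P1197913: actccaaacatctaaagcaactgtcgagtt
A_51_P500984: agagacattccAATAAActcgttaagcctt

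The brighter probe, A_52_P1197913 at chr10:80721228-80721287 (mm7), read 10.65, 9.80, 10.05 and 10.22 in blood 1 to 4 and 10.01, 8.84, 8.91 and 8.89 in spleen 1 to 4. Spleen 2, 3 and 4 lay below all blood samples, and spleen 1 lay between blood 2 and blood 3. Blood averaged 10.18 ± 0.36 and spleen 9.16 ± 0.57 (SD, n = 4 each). The difference was -1.02 (SE 0.32, 95% interval -1.73 to -0.30), a 2.02-fold lower value in spleen, with limma's Benjamini-Hochberg adjusted p = 0.704. Over the samples left out in turn it was -1.30 to -0.86; without spleen 1, at -1.30, all spleen values were below all blood values and limma's Benjamini-Hochberg adjusted p was 0.263. Of all tested genes, 1.41% (258) had spleen wholly below blood with all 8 samples. That share can only stay or rise when a sample is left out, and it was not computed without spleen 1. The 5 matching arrays gave -1.06 in the table and -1.18 in the scanner files, and the slide shared by spleen 4 and blood 4 gave -1.33.

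The dimmer Gadd45b probe, A_51_P500984 at chr10:80721751-80721810 (mm7), read 7.23, 8.22, 8.56 and 7.54 in blood 1 to 4, and 10.86, 7.72, 7.09 and 9.21 in spleen 1 to 4. Spleen 1 and spleen 4 exceeded all blood samples, and spleen 3 lay below all of them. Its difference was 0.83 (SE 0.73, 95% interval -0.80 to 2.46), with limma's Benjamini-Hochberg adjusted p = 1. Between spleen 4 and blood 4 this probe differed by 1.66. Over the 8 samples the probes had a Pearson correlation of 0.031 and a Spearman correlation of -0.19, given as a description. Averaging both probes left a Gadd45b difference of -0.09, so the unadjusted result rests on the brighter probe. All 8 scanner files, 3 of them in conflict with the table, gave -0.08 on the brighter probe.

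**Figure D3:**
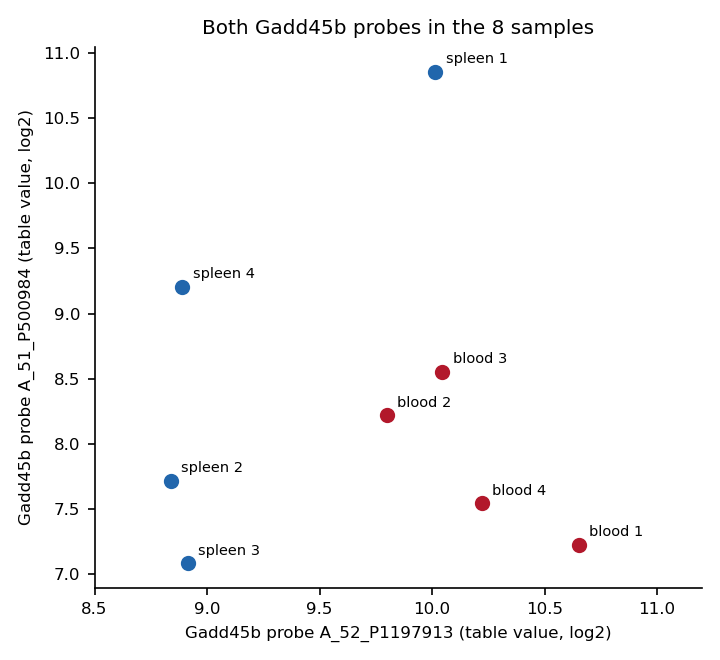
Table value (log2) of Gadd45b probe A_51_P500984 (vertical axis) against probe A_52_P1197913 (horizontal axis) in the 4 blood (red) and 4 spleen (blue) samples. Spleen 2, 3 and 4 lie at 8.84 to 8.91 on the horizontal axis and spread from 7.09 to 9.21 on the vertical one, while spleen 1 is high on both.

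Gadd45g, which is induced by cytokines and activates the p38 and JNK kinase MEKK4, was higher in spleen in the table. Probe A_51_P315904 at chr13:50882456-50882515 (mm7) read 7.62, 8.30, 7.51 and 7.72 in blood 1 to 4, and 8.90, 8.25, 8.25 and 9.06 in spleen 1 to 4. Blood 2 alone overlapped the spleen range. Blood averaged 7.79 ± 0.35 and spleen 8.62 ± 0.43 (SD, n = 4 each). The difference was 0.83 (SE 0.28, 95% interval 0.20 to 1.46), a 1.77-fold higher value in spleen, with limma's Benjamini-Hochberg adjusted p = 0.729. Leaving out 1 sample at a time gave 0.68 to 1.0, and without blood 2 all Gadd45g spleen values lay above all blood values. The share of all genes with spleen wholly above blood was 1.88% with all 8 samples, and was not computed without blood 2. The 5 matching arrays gave 0.90 in the table and 1.23 in the scanner files, and the shared slide gave 1.34. All 8 scanner files gave -0.52 at the 75th percentile.

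Gadd45a, the p53-regulated member of the family and the one named for growth arrest after DNA damage, had a range of 3.13 over the 8 samples, the widest among the probes that represent a member and were above background on all arrays. Its probe A_51_P296608 at chr6:67017167-67017226 (mm7) read 6.89, 6.91, 7.72 and 8.48 in blood 1 to 4, and 6.95, 7.84, 10.03 and 8.91 in spleen 1 to 4. Values near background occurred in both tissues, and only spleen 3 and 4 exceeded the blood range. The Gadd45a difference was 0.93 (SE 0.63, 95% interval -0.49 to 2.35), with limma's Benjamini-Hochberg adjusted p = 1. It was 0.40 without spleen 3 and 1.42 without spleen 1, where the unadjusted limma p was 0.0346 (Benjamini-Hochberg adjusted 0.82). On the 5 matching arrays the sign turned, at -0.05, where blood is represented by blood 4, its highest sample. All 8 scanner files gave -1.12 at the 75th percentile and -0.69 after normexp.

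Among the members, correlations over the 8 samples of the table, which share the tissue difference, are given as a description. Dusp3 and Dusp10 were most alike, with a Pearson correlation of 0.72, and blood 1 was the lowest blood sample for both. Dusp2 ran opposite to both, with correlations of -0.72 to Dusp10 and -0.70 to Dusp3. Gadd45g and Dusp2 had a correlation of 0.58, and Gadd45a and the brighter Gadd45b probe of -0.64. Among 12594 genes above background on all 8 arrays, those closest to Gadd45a were Ptgr1 (0.953), Bpnt2 (0.953) and Cd38 (0.946). Closest to Dusp10, whose range was 2.02, were Med7 (0.974), Csl (0.969) and Phf11a (0.968). Closest to the brighter Gadd45b probe, whose range was 1.81, were Idh3b (0.933), Pnpla6 (0.928) and LOC670529 (0.921). All of these rest on 8 samples, and no test was made.

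**Figure D4:**
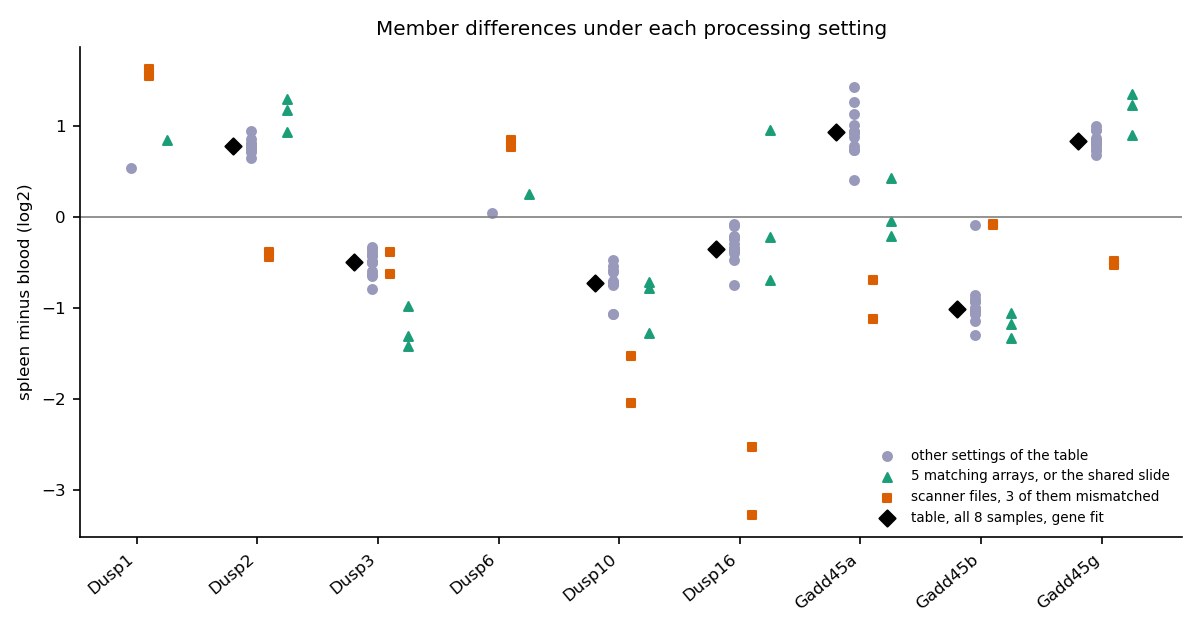
Spleen minus blood difference (log2, vertical axis) of each member under each processing setting: diamonds, the table with all 8 samples; circles, other settings of the table (for Dusp1 and Dusp6, filled values); triangles, the 5 matching arrays or the shared slide; squares, all 8 scanner files. Dusp2 and Gadd45g lie above 0 except on the squares, Gadd45a has values on both sides, and Dusp3 and Dusp10 lie below 0 throughout.

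Other genes were taken as lists by protein family or pathway, described by counts and medians over their tested members. None of their genes passed the adjusted threshold either. Of all tested genes, 5.43% had an unadjusted p under 0.05, 3.09% higher and 2.34% lower in spleen. The lists were chosen with earlier results of these data known, so their counts describe them and do not test them. Of 26 other dual-specificity phosphatases, 20 were tested, 8 higher and 12 lower in spleen, 0 with an unadjusted p under 0.05, with a median difference of -0.09. The smallest p-values were those of Cdc14a (0.44), Styx (-0.39), Dusp14 (-0.36) and Cdc14b (-0.36), with differences in parentheses, and the lowest difference was that of Dusp7 at -0.74. The other 6 genes of that list were not tested, among them Dusp4 and Dusp8.

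In the MAP kinase cascade, 34 of 35 genes were tested, 12 higher and 22 lower in spleen, with a median difference of -0.12 against -0.0081 over all genes. Map3k11, a kinase upstream of JNK, was the 1 gene with an unadjusted p under 0.05, at -1.02 (SE 0.43) and limma's Benjamini-Hochberg adjusted p = 0.867. Next by p were the p38 kinase Mapk11 (-0.64), Map3k5 (-0.81, with 3 blood values) and the ERK kinase Mapk3 (-0.55). Of the direct substrates of the phosphatases, the p38 kinase Mapk14 averaged 12.61 ± 0.19 for blood against 12.56 ± 0.14 for spleen (SD, n = 4 each). The JNK kinase Mapk8 averaged 9.40 ± 0.26 and 9.47 ± 0.40 in the same order. For 22 other negative regulators of this signalling, 16 were tested, 11 of them higher and 5 lower in spleen, and the median difference was 0.03 and 0 with an unadjusted p under 0.05. Sh2b3, an adaptor that restrains cytokine receptor signalling, had the smallest p in that list, at -0.49 (SE 0.23) and limma's Benjamini-Hochberg adjusted p = 0.937. All its spleen values lay below all blood values, which held for 1 of the 16 tested genes of that list and 1.41% of all tested genes. Sh2b3 was followed by Pebp1 (0.43), Ptpn7 (-0.60) and Ppm1d (-0.44).

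Immediate-early genes, which MAP kinase activity induces, went both ways. Of 30 listed, 21 were tested, 10 of them higher and 11 lower in spleen, and the median difference was -0.03. Fosb, a subunit of AP-1, averaged 12.15 ± 0.59 for blood against 13.66 ± 1.01 for spleen (SD, n = 4 each). That is a difference of 1.52 (SE 0.50), with limma's Benjamini-Hochberg adjusted p = 0.729. Jun, its AP-1 partner, differed by 0.94 (SE 0.34; adjusted p = 0.756), and the zinc finger factor Egr1 by -0.81 (SE 0.32; adjusted p = 0.826). These were the 3 of 21 tested genes of the list with an unadjusted p under 0.05, against 5.43% of all tested genes. Atf3 followed at -0.91 (SE 0.42). Fos, the best known of them, differed by 0.42, and Junb by -0.15.

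Among 28 p53 targets, Gadd45 partners and growth arrest genes, 24 were tested, 14 of them higher and 10 lower in spleen, and the median difference was 0.11. Ccng2, a cyclin of non-dividing cells, was the 1 gene with an unadjusted p under 0.05, at 0.67 (SE 0.27) and limma's Benjamini-Hochberg adjusted p = 0.834. The next were Ei24 (0.79), Atf4 (0.51) and Pmaip1 (0.38). Targets of p53, which also induces Gadd45a, had differences on both sides of 0. Higher in spleen were Sesn1 (0.44), Fas (0.32), Bax (0.26), Ccng1 (0.20), Trp53inp1 (0.14) and Bbc3 (0.08). Lower were Sesn2 (-0.46), the cell cycle inhibitor Cdkn1a (-0.36), Mdm2 (-0.04) and Zmat3 (-0.04). These genes were picked after their values were seen and are not all p53 targets of the list. They therefore do not give its balance of directions.

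**Figure D5:**
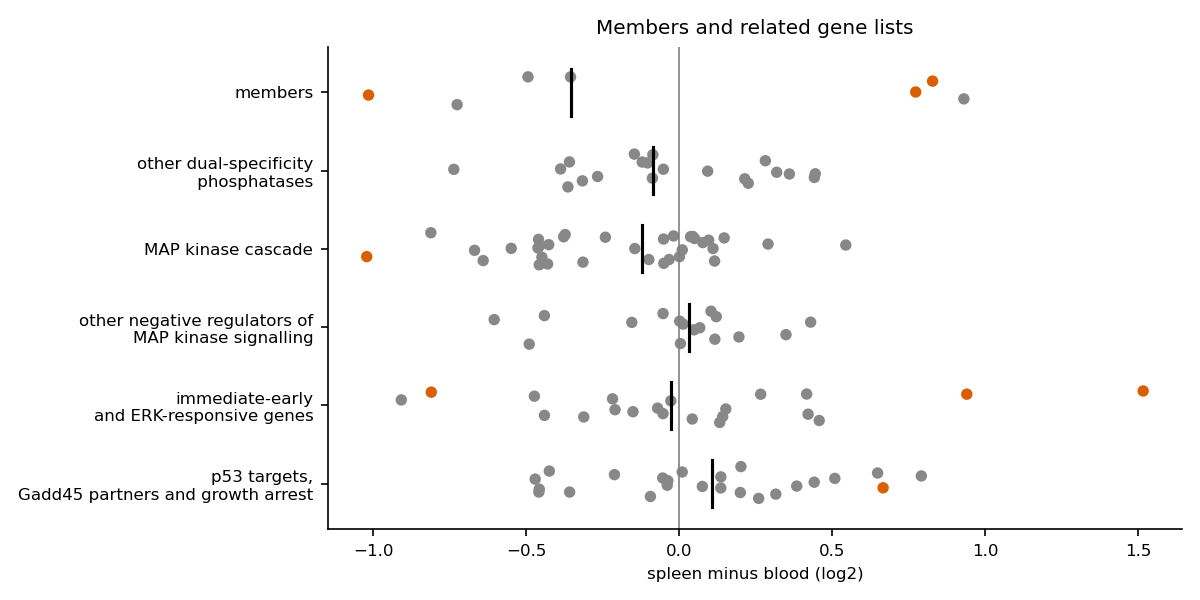
Spleen minus blood difference (log2, horizontal axis) of each tested gene of the members and of 5 related lists, with the vertical spread inside a list only for legibility. Orange marks an unadjusted limma p under 0.05, and the bars mark list medians, from -0.36 for the members to 0.11 for the p53 targets, Gadd45 partners and growth arrest genes.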

How the data were processed

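The deposited spot intensity values came from Agilent Feature Extraction 9.5.1.1, per the file headers, with 1 colour and no normalization between arrays. The authors' log2 value table covers all 8 samples; limma stands in the submitters' processing notes without a version. The table's columns share a median of 7.31, and scale and centring are not stated. Where arrays match, its ranks follow the median spot signal without background subtraction, which narrows differences of dim probes. Direction was taken from the labels.

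Probes were kept when they reached 6.8 on 4 or more of 8 arrays, with 3 or more values for each tissue (25471 probes), and the brightest probe represented a gene (18266 genes). From 6.8 up, at least 95% of probes per step of 0.1 were well above background on each matching array. The scanner files' accessions named 22951 probes (55.7%) through RefSeq and the other 18223 kept the file's name; probe positions are on mm7, and no annotation of that build was used. Spleen was compared with blood in R 4.3.3 with limma 3.58.1 (lmFit, eBayes), tested on simulated data, with Benjamini-Hochberg adjustment at 0.05. The table was the source of values and the scanner intensity values an alternative, because 3 blood scanner files conflict with the table. Empty cells of Dusp1 and Dusp6 were filled from the matching array's map of median signal to table value. Both the members and the lists were chosen with earlier results of these data known. Named genes were all members with every probe, the 4 of smallest p in each list, and the 3 most correlated with each of the 3 members of widest range. Dusp7, Mapk14, Mapk8, Fos, Junb, Cdkn1a, Mdm2, Sesn1, Sesn2, Fas, Bax, Ccng1, Trp53inp1, Bbc3 and Zmat3 were added after their values were seen. Alternatives covered the replicate number as a block, filters, the choice of probe, variance settings, the source of the values and leaving out each sample.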

Additional observations from a re-analysis of the deposited data

Results flagged for a closer look

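In the Gadd45b probe A_52_P1197913, spleen 1 stood apart from the other 3 spleen samples. It read 10.01 against 8.84 to 8.91, a gap of 0.935 of the group's whole range, above Dixon's critical value of 0.829 for 4 samples. This was 1 of 21 groups of 4 member values checked, and chance marks about 1 group in 20. Spleen 1 was also the highest of all 8 samples on the other Gadd45b probe, at 10.86, and the lowest spleen sample for Gadd45a (6.95), Dusp10 (6.80) and the brightest Dusp16 probe (6.78). No cause was tested.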

How the results depend on the processing

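No alternative put a member past the adjusted threshold, but the count over all genes, 0 in the table, was not stable. It was 1 with the replicate number as a fixed block, 13 with that block as random (correlation 0.21), 1 with genes above background on all 8 arrays, 7 when probes of a gene were averaged, 8 under robust variance that follows intensity, 9 with array weights, 4 with the scanner files at the 75th percentile, 6 with the scanner files after normexp (offset 50), 8 with empty cells filled, and 0 to 3 with 1 sample left out (3 without blood 1, spleen 1 or spleen 2, and 2 without blood 2). Same-numbered samples had correlations of 0.090 to 0.141 of their deviations, each the best match of its sample, which is a hint from the data and not enough to pair them; the fixed block put 2 members (Gadd45b and Dusp10) under an unadjusted 0.05 in the lower direction. That lower count, 1 in the table, was 0 with the mean over probes, on the 5 matching arrays and on the 5 matching scanner files, and 1 to 3 with 1 sample left out; over all 8 scanner files it was also 1, but the gene was Dusp16 and not Gadd45b. The higher count, 2 in the table, was 1 with the scanner files at the 75th percentile (Dusp6), 2 after normexp (Dusp1 and Dusp6, not Dusp2 and Gadd45g), 2 to 3 with 1 sample left out (3 without spleen 1, which adds Gadd45a) and 1 on the 5 matching arrays by either source (Dusp2). Members with spleen wholly above blood numbered 1 to 2, and wholly below 0 to 1, with 1 sample left out. The shares of all genes given above for such counts belong to the table with all 8 samples. None was computed for the other settings, so the member counts here are only a description. All 8 scanner files reversed Dusp2 (-0.39, and -0.45 after normexp), Gadd45g (-0.52 and -0.49) and Gadd45a (-1.12 and -0.69). The 5 matching scanner files kept the sign of Dusp2 (1.29) and Gadd45g (1.23). Gadd45a was also reversed on the 5 matching arrays (-0.051 in the table, -0.21 in the scanner files), and Dusp16 on the shared slide (0.95). Causes were not tested. Adjusted p over all alternatives ran from 0.366 for Dusp2, 0.263 for Gadd45b and 0.427 for Gadd45g up to 1. The members' median became 0.14 with genes above background on all 8 arrays and 0.04 with filled cells, and that of the p53 list -0.19 and -0.22 with the scanner files. The slide as a random block over the 5 matching arrays could not be fitted. Filling, the 5 matching scanner files and the shared slide were chosen after seeing the data. The number of arrays limits the precision, and dim probes (both lesser Dusp16 probes, Gadd45a in blood 1, blood 2 and spleen 1, and Dusp10 and the brightest Dusp16 probe in spleen 1) lie near background.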
